A study of Mus musculus with 6 samples.

Results

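Histone genes were followed in the whole testis of the mouse at postnatal day 14. They comprised 92 of the 55353 genes in the deposited tables, and the rule for choosing them was the gene symbol. A symbol that begins with Hist and a cluster number, with H2af, with H3f3 or with H1f picked 28 genes, because the tables give most histone genes under newer names (H2ac, H2bc, H3c, H4c and the like). The other 64 genes were found because their older symbol has one of these forms, and the classes below were assigned from the older symbols. The 92 genes are 64 replication-dependent genes, 8 germ-line variants, 10 replacement variants, 9 pseudogenes and 1 antisense gene (H3f3aos).

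The study compared 3 control testes, whose alleles the labels do not describe further, with 3 testes of Rnu11-cKO mice, the mutants, in which Rnu11 was deleted conditionally. The product of Rnu11 is U11, an snRNA that recognises the rare introns removed by the minor spliceosome. A stranded kit with depletion of ribosomal RNA was used for all 6 libraries, so mRNAs without poly(A) tails were not selected against. Neither the Cre line nor the cells in which it acts are given in the sources used here, nor whether animals were littermates or pooled.

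Nucleosomes are built from the core histones H2A, H2B, H3 and H4, and linker histone H1 binds the DNA between them. Replication-dependent histone genes are transcribed in S phase, mostly from clusters of near-identical copies, and their mRNAs end in a conserved stem-loop in place of a poly(A) tail. Replacement variants such as H3f3a and H2az1 are made throughout the cell cycle from mRNAs with introns or poly(A) tails, and male germ cells add variants of their own: TH2A, TH2B and H1t are deposited in spermatogonia or spermatocytes, before transition proteins and protamines take the place of histones in spermatids.

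The stem-loop is shown because its arm differs between H4 and the other replication-dependent families, and because a replacement and a germ-line gene also hold it. The pattern searched was GGC, any base, CTTTT, any base, AG, any base and GCC, on the transcript strand of GENCODE M21 transcripts. An exact match in the last 120 bases was found in 21 of the 64 replication-dependent genes, and these were all of the protein-coding genes that had one (0.0957% of 21951). Anywhere in a transcript, 41 of the 64 had a match, as did H1f6, H2ax and 2 genes that are not histone members, 0.205% of protein-coding genes in all. Some annotated transcripts run on past the stem-loop and 9 of the 64 genes are annotated without untranslated regions, so no match says only that the annotated sequence does not hold these letters. In the lines below the matched letters are in capitals, flanked by up to 5 bases on each side, 5′ to 3′.
H4c8: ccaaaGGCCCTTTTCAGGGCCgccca
Hist1h4n: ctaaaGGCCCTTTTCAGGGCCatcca
H2ac18: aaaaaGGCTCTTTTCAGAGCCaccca
H2bc12: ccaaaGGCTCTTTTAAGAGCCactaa
H3c1: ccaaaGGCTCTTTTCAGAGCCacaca
H1f6: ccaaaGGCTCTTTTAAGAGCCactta
H2ax: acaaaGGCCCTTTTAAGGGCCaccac
All 9 H4 genes with a match had a GGCCC arm (7 with C and 2 with T at the base after CTTTT), whereas every match in a replication-dependent H1, H2A, H2B or H3 gene had a GGCTC arm. H2ax was the 1 member outside H4 with the GGCCC arm.

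The germ-line genes H2ac1 (TH2A) and H2bc1 (TH2B) lie head to head on chromosome 13 and share a promoter region. H2ac1 is a single exon at 23934462 to 23934851 on the plus strand, and H2bc1 a single exon at 23933773 to 23934156 on the minus strand (GRCm38). The 250 bases before the RefSeq start of H2ac1 are given below (RefSeq, GRCm38.p6, plus strand, chr13:23934187-23934436), with 3 motifs in capitals on either strand: the octamer ATTTGCAT, the CCAAT box CCAAT and the TATA box TATAAA. The window of H1f6 (H1t), a single exon at 23695814 to 23696725 of the same chromosome, follows (chr13:23695561-23695810, plus strand) and holds 1 of these motifs, a CCAAT box.
H2ac1: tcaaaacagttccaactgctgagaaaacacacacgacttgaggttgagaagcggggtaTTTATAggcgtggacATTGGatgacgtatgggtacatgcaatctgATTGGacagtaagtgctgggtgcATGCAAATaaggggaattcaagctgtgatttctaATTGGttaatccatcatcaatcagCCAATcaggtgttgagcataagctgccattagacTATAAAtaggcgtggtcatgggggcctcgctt
H1f6: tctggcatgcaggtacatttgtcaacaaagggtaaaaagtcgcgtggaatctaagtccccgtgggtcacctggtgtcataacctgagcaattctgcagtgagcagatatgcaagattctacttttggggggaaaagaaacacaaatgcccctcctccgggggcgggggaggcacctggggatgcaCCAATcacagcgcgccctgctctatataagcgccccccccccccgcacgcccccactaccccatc
The octamer occurs in 1.601% of 32851 promoter windows of this length, CCAAT in 33.8% and TATAAA in 12.4%. RefSeq gave a window for 69 of the 92 members. Among the replication-dependent genes the octamer was in 6 of 14 H2A and 6 of 13 H2B windows and in 0 of the 25 windows of H1, H3 and H4 genes. CCAAT was in 43 of 52 replication-dependent windows and TATAAA in 23 of 52. The H2ac1 and H2bc1 windows overlap and hold the same octamer, 124 bases before the RefSeq start of H2ac1 and 164 bases before that of H2bc1. The H2bc1 start is the end, at 23934156, of a model annotated without untranslated regions. These 2 distances may therefore not be comparable. These matches are letters in a window and no measure of binding.

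Values are TPM (a share of each library's transcripts after scaling to transcript length), as the authors deposited them, with no counts, and sequencing depth is therefore unknown. Rnu11 itself, which checks the labels, averaged 580.4 ± 32.3 TPM in control libraries against 264 ± 112 TPM in mutant ones (SD, n = 3 each; limma log2 difference −1.21, adjusted p = 0.29). By library it read 614, 576 and 550 TPM in controls 1 to 3 and 196, 393 and 203 TPM in mutants 1 to 3. Markers of meiotic cells, Sertoli cells and Leydig cells were all present, as a whole testis holds, and the round spermatid markers summed to only 3.24 to 4.82 TPM. A mean of 1 TPM or more was reached by 17959 genes, of which 5 passed an adjusted p of 0.05 in either direction (limma on log2(TPM + 1), Benjamini-Hochberg), which is 0.0278%. The median log2 difference (mutant minus control) over all these genes was 0.09. Scaling the libraries to their median ratio brought it to −0.00 and scaling to nuclear protein-coding genes to −0.01, so a log2 difference here is best read against 0.09.

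Of the histone genes, 83 had a mean of at least 1 TPM and were tested, and 0 passed the adjusted threshold (limma, smallest adjusted p = 0.294). At an unadjusted p under 0.05, 12 were lower in mutants and 4 were higher, against 3.98% and 12.1% of all genes tested. The median log2 difference of the 83 was −0.13, with 54 below 0 and 29 above, whereas 33.6% of all genes tested were below 0. The 3 mutant values lay entirely below the 3 control values in 12 histone genes and entirely above them in 4, against 5.77% and 14.5% of all genes. The 9 genes left untested were 5 germ-line variants and 4 pseudogenes, none of which averaged 1 TPM. Under the symbols in the tables alone, 22 of the 28 genes were tested, with 12 below and 10 above 0 and a median of −0.03.

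**Figure D1:**
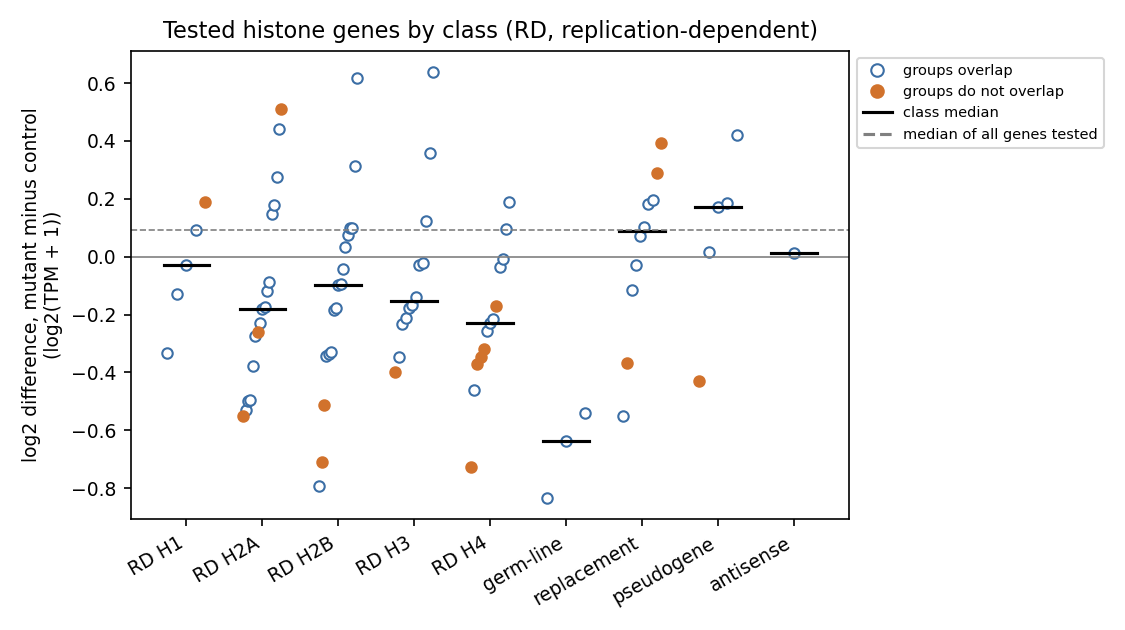
Log2 difference (mutant minus control, log2(TPM + 1)) of each of the 83 tested histone genes, by class. Each circle is 1 gene, filled where the 3 mutant and 3 control libraries do not overlap. The black lines are class medians and the dashed line is the median of all 17959 genes (0.09). The 3 germ-line genes lie lowest as a class, and most replication-dependent H4 genes lie below 0.

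The 3 tested germ-line variants had the lowest median of any class, −0.64, and in each of them control 2 stood apart from the other controls. H2bc1, the germ-line H2B, read 2669, 1496 and 2534 TPM in controls 1 to 3 and 1203, 1266 and 1759 TPM in mutants 1 to 3. Control 2 stood below mutant 3, so the groups overlapped. The means were 2233 ± 642 and 1409 ± 305 TPM (SD, n = 3 each), a log2 difference of −0.64 (SE 0.27; limma, adjusted p = 0.308). In whole testis, fewer germ cells and less RNA per germ cell cannot be told apart in such a value.

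H2ac1, its partner H2A gene, read 718, 427 and 651 TPM in controls and 368, 337 and 524 TPM in mutants. The order of the libraries was the same as for H2bc1 in the controls, and control 2 again lay below mutant 3. The log2 difference was −0.54 (SE 0.25; limma, adjusted p = 0.323). H1f6, the germ-line linker histone, read 65.1, 24.8 and 65.4 TPM in controls and 21.8, 24.3 and 33.9 TPM in mutants. Control 2 was again next to the mutants, and the log2 difference was −0.83 (SE 0.38; limma, adjusted p = 0.323). Without control 2 the differences were −0.90 for H2bc1, −0.76 for H2ac1 and −1.29 for H1f6. Their limma adjusted p-values were then 0.134, 0.162 and 0.0901. Without control 1 the differences were −0.49, −0.39 and −0.61, and without control 3 they were −0.52, −0.46 and −0.60 (limma, adjusted p of 0.573 to 0.621). Over all alternatives the limma adjusted p of H1f6 ran from 0.0901 to 0.629.

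The summed level of pachytene markers was also low in control 2 and in the mutants. The 11 markers listed (among them Piwil1, Ybx2 and Ldhc) summed to 196, 89.4 and 187 TPM in controls and 87.4, 83.9 and 107 TPM in mutants, with 8 of 11 tested. Of these, 0 passed the adjusted threshold and 4 were lower at an unadjusted p under 0.05 (limma), against 3.98% of all genes tested. Every mutant was below every control in 2 (Adad1 and Zpbp) and above in 1 (Pou5f2, log2 difference 0.21), against 5.77% and 14.5% of all genes. Tbpl1 differed by −0.071. Spata16, Pgk2 and Spag6 averaged under 1 TPM. The 11 leptotene and zygotene markers (Sycp1, Sycp3, Dmc1 and others) summed to 382 to 470 TPM in controls and 264 to 342 TPM in mutants. Mutants lay below controls in 9 of 11, against 5.77% of all genes tested. Sycp3 (log2 difference −0.65) and Rec8 (0.38) had overlapping groups, and Rec8 was the 1 marker above 0. The 9 Sertoli markers summed to 1315 to 1455 TPM in controls and 1885 to 2367 TPM in mutants. Clu made up most of this sum, at means of 849 TPM in controls and 1330 TPM in mutants. Of the 9, 6 had mutants above controls, against 14.5% of all genes tested. The 6 Leydig markers summed to 117 to 226 TPM in controls, highest in control 2, and 237 to 365 TPM in mutants. The part of these cell types in the histone values was not tested.

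The remaining germ-line variants were near 0. H1f7 and H1f8, the round spermatid and oocyte linker histones, were at most 0.0786 and 0.516 TPM in any library. H2ab2 was listed at 0 in all 6 libraries, and H2ab1 above 0 in control 2 only, at 0.0626 TPM. H2ab3, a short H2A variant of the X chromosome, read 0.271, 0.376 and 0.646 TPM in controls and 0.0946, 0 and 0 TPM in mutants. Its values were too low for the test.

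**Figure D2:**
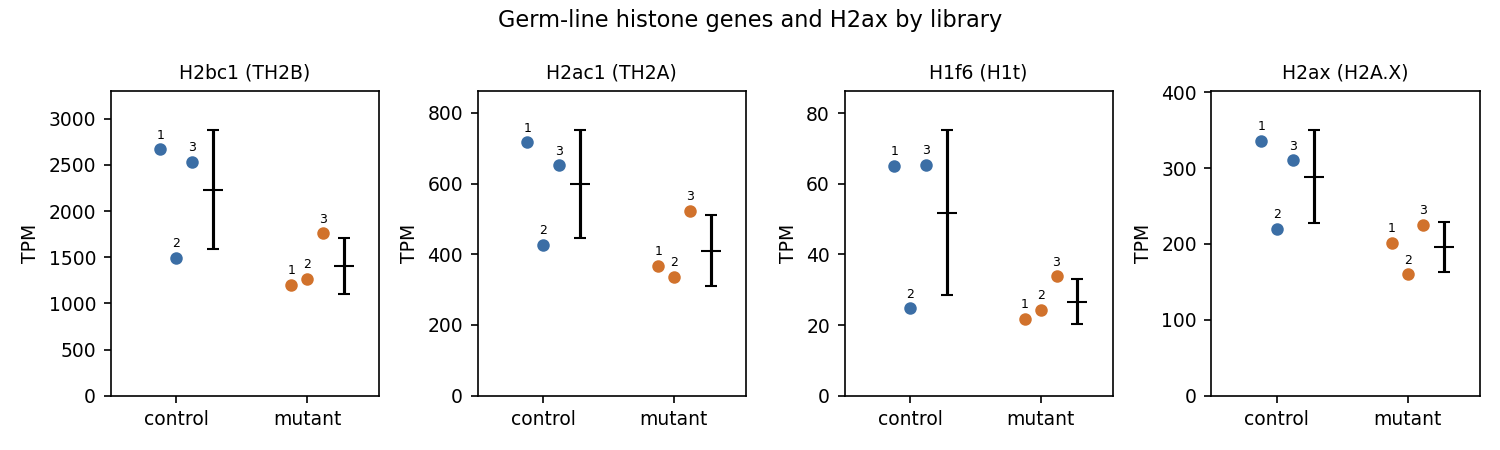
TPM of H2bc1, H2ac1, H1f6 and H2ax in each library (points, numbered by replicate), with the mean and SD of each group beside them (n = 3). Control 2 lies among or next to the mutants in all 4 panels, while controls 1 and 3 lie above every mutant.

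H2ax, the H2A variant that is phosphorylated at DNA breaks and on the sex chromosomes of spermatocytes, also had control 2 next to the mutants. It read 336, 220.0 and 310.2 TPM in controls and 202, 160.0 and 226 TPM in mutants. Control 2 was just below mutant 3, and the log2 difference was −0.55 (SE 0.20; limma, unadjusted p = 0.027, adjusted p = 0.294). With 1 library left out it ran from −0.41 without mutant 2 (limma, adjusted p = 0.625) to −0.73 without control 2 (limma, adjusted p = 0.133).

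Among the other replacement variants values lay on both sides of 0. Macroh2a1, a large H2A variant with a macro domain, read 67.5, 69.6 and 62.3 TPM in controls and 82.8, 88.3 and 73.5 TPM in mutants, so every mutant was above every control. Its log2 difference was 0.29 (SE 0.10; limma, unadjusted p = 0.026, adjusted p = 0.294), and 0.18 under median-ratio and 0.17 under protein-coding scaling. H2aj, a replacement H2A, was also higher in every mutant at a low level, with 4.68, 4.26 and 4.06 TPM in controls against 5.10, 6.73 and 6.27 TPM in mutants (log2 difference 0.39, and 0.30 and 0.33 under these scalings; limma, adjusted p = 0.294). H1f10, a linker variant, read 51.2, 47.8 and 60.1 TPM in controls and 47.4, 31.0 and 46.0 TPM in mutants, with every mutant below every control by a margin of under 1 TPM (log2 difference −0.37; limma, adjusted p = 0.339). H3f3a and H3f3b, the genes of the replacement H3 with identical protein products, differed by 0.20 and 0.10 on the log2 scale, but H3f3b stood at −0.0092 under median-ratio and −0.013 under protein-coding scaling. H1f0, a linker histone of resting cells, differed by 0.07, and by −0.036 and −0.041 under these scalings. H2az1 (−0.12), H2az2 (−0.03) and Macroh2a2 (0.18) had overlapping groups. Over the 10 replacement variants the median log2 difference was 0.09, the same as that of all genes, with 6 above and 4 below 0.

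Several replacement genes have more than 1 isoform. Of 102 histone isoforms tested for level and 22 for their share of the gene, 0 passed an adjusted p of 0.05 (limma), against 0.0136% of isoforms and 0.0112% of shares over all genes. At an unadjusted p under 0.05, 11 isoforms were lower and 5 higher, against 3.18% and 8.06% of all isoforms, and 0 shares were lower or higher, against 3.01% and 2.77% of all shares. The isoform H2afy-202 of Macroh2a1 stood at 6.92, 8.90 and 5.78 TPM in controls and 11.1, 11.1 and 9.84 TPM in mutants, above the controls in every mutant (log2 difference 0.53; limma, unadjusted p = 0.013, adjusted p = 0.433). Its share of the gene was 10.8% ± 1.81 in controls and 13.1% ± 0.513 in mutants (SD, n = 3 each). The isoform H2afy-201 went from 29.0% ± 2.97 to 24.9% ± 0.580 of the gene (limma on the share, adjusted p = 0.855). These 2 shares are parts of 1 total and are not independent. The isoforms next by p for level were the single isoforms of Hist1h4n, H4f16 and H3c10 and Hist1h2bp-201, 1 of 2 of its gene, and these genes are given below, and next by share were H3f3b-204 (16.9% to 18.9%), H2afz-201 of H2az1 (85.4% to 83.9%) and H2afy-204 (27.8% to 29.9%), all with limma adjusted p-values of at least 0.888.

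The replication-dependent genes were mostly lower, by small amounts. All 64 had a mean of at least 1 TPM, from 1.33 to 1469 TPM with a median of 70.0 TPM. The log2 difference was below 0 in 46 and above 0 in 18, with a median of −0.17, and 0 passed the adjusted threshold. Of all genes tested, 33.6% were below 0. At an unadjusted p under 0.05 (limma), 9 were lower and 2 were higher, against 3.98% and 12.1% of all genes tested. Groups were separated in 12 genes, with mutants lower in 10 and higher in 2, against 5.77% and 14.5% of all genes. Under median-ratio scaling 52 were below 0, when 50.3% of all genes were. Leaving out 1 library at a time gave 41 to 49 genes below 0. The 22 S phase genes listed, such as Pcna and Mcm5, had 18 below and 4 above 0 with a median of −0.12. The 7 differentiating spermatogonia markers summed to 422 to 447 TPM in controls and 344 to 367 TPM in mutants, with mutants below controls in 5. Dazl, the largest of them, averaged 241 TPM in controls and 187 TPM in mutants. The 8 undifferentiated spermatogonia markers summed to 47.3 to 57.4 TPM in controls and 55.1 to 58.4 TPM in mutants, with 6 above 0 and 2 below. The part of dividing germ cells in the histone values was not tested.

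The H4 family had the most members with separated groups, 5 of 13, and 11 of 13 were below 0 (median −0.23). All 5 had mutants below controls, against 5.77% of all genes tested, of which 33.6% were below 0. H4c12, the H4 gene with the highest TPM, read 1877, 1827 and 1710.3 TPM in controls and 1535, 767 and 1099.6 TPM in mutants. Every mutant was below every control, but the mutants were spread far more widely than the controls. The log2 difference was −0.73 (SE 0.25; limma, adjusted p = 0.294), and −0.47 without mutant 2. Its annotated model is 312 bases and holds no untranslated region, so its level may not be comparable with that of genes annotated in full. Hist1h4n, next in level, read 1171, 1117 and 1076 TPM in controls and 825, 857 and 918 TPM in mutants. These groups were well apart for their spread, at a log2 difference of −0.37 (SE 0.11; limma, adjusted p = 0.294). Of the 50-base windows of Hist1h4n, 85.6% are found in another gene, and of those of H4c12, 71.5%. Their reads may therefore be split among copies. H4f16, a single-copy H4 gene on chromosome 6 with 6.75% of its 50-base windows found in another gene, read 47.2, 50.3 and 46.2 TPM in controls and 36.0, 37.3 and 41.4 TPM in mutants. It had the smallest p of all histone genes (log2 difference −0.32, SE 0.09; limma, unadjusted p = 0.010, adjusted p = 0.294). H4c2 (−0.35) and H4c4 (−0.17) were the others with separated groups. H4c11 (0.19) and H4c14 (0.095) were the 2 H4 genes above 0.

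Of the replication-dependent H3 genes, 9 of 12 were below 0 (median −0.15), against 33.6% of all genes tested. H3c10, with the highest mean of these, read 331, 321 and 286 TPM in controls and 244, 264 and 206 TPM in mutants, and the groups did not overlap (log2 difference −0.40, SE 0.13; limma, adjusted p = 0.294). It is also annotated without untranslated regions, and 93.9% of its 50-base windows are found in another gene. H3c14 and H3c13 had the family's largest positive values, 0.64 and 0.36, from libraries that ranged from 0.947 to 15.4 TPM and from 9.36 to 59.2 TPM.

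Of the replication-dependent H2A genes, 12 of 17 were below 0 (median −0.18), against 33.6% of all genes tested. H2ac18 read 202, 165 and 153 TPM in controls and 120.3, 149 and 90.3 TPM in mutants, every mutant below every control (log2 difference −0.55; limma, adjusted p = 0.294). Its near-identical copy H2ac19, the most abundant replication-dependent H2A gene, was higher on average, with 207, 215 and 240 TPM against 249, 219 and 346 TPM (log2 difference 0.27; limma, adjusted p = 0.434). Of their 50-base windows, 89.4% in H2ac18 and 100% in H2ac19 are found in another gene. Reads can be split between such copies, so neither difference can be read alone. H2ac21, at 2.67 ± 0.863 TPM in controls against 4.13 ± 0.208 TPM in mutants (SD, n = 3 each), was the 1 replication-dependent H2A gene with every mutant above every control (log2 difference 0.51; limma, adjusted p = 0.294). H2ac15 (−0.26) had mutants below controls.

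Among replication-dependent H2B genes, 11 of 17 were below 0 (median −0.10), against 33.6% of all genes tested. Hist1h2bp read 82.7, 61.6 and 52.7 TPM in controls and 48.7, 29.0 and 42.2 TPM in mutants (log2 difference −0.71, SE 0.23; limma, adjusted p = 0.294). H2bc12 read 159, 138 and 144 TPM in controls and 82.6, 99.0 and 132 TPM in mutants (log2 difference −0.51, SE 0.17; limma, adjusted p = 0.294). In both, every mutant was below every control. Hist1h2bq, the most abundant of these at 339 ± 127 TPM in controls against 308 ± 70.8 TPM in mutants (SD, n = 3 each), had overlapping groups.

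The replication-dependent linker genes had the family median closest to 0, −0.03 over 5 genes. Their summed TPM was nevertheless 15.9% lower in mutants, a larger difference than in the H2A, H2B or H3 sums, with overlapping groups. H1f1, which made up 69.2% ± 1.27 of H1 TPM in controls and 66.8% ± 2.38 in mutants, read 723, 644 and 754 TPM in controls and 546, 464 and 692 TPM in mutants. Mutant 3 was above control 2, and the log2 difference was −0.33 (SE 0.17; limma, adjusted p = 0.342). H1f5 was higher in every mutant, at 18.1, 17.9 and 18.9 TPM against 21.1, 21.5 and 20.5 TPM (log2 difference 0.19, SE 0.08; limma, unadjusted p = 0.047, adjusted p = 0.307). H1f2 (−0.13), H1f3 (−0.03) and H1f4 (0.09) overlapped.

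Sums over each family are given because reads can be split among copies, and a sum still depends in part on that split: TPM is scaled by length, H4 models run from 312 to 2863 bases, and pseudogenes that share sequence are left out of the sums. The replication-dependent genes summed to 10071, 9667 and 10441 TPM in controls and 8169.9, 7423 and 9558 TPM in mutants, so the mutant mean was 16.7% lower and every mutant was below every control, by a narrow margin in mutant 3. The H4 sum was 5035 ± 184 TPM in controls against 3888 ± 535 TPM in mutants (SD, n = 3 each), 22.8% lower, with the groups apart. A large part of this difference lay in 1 gene, H4c12, which averaged 1805 TPM in controls and 1134 TPM in mutants. H4c12 is annotated without untranslated regions, and its mutant values were widely spread. The H3 sum was 1220.2 ± 58.2 and 1068 ± 83.8 TPM (SD, n = 3 each), 12.5% lower, also apart. The H1, H2A and H2B sums were 15.9%, 9.09% and 7.02% lower in mutants, with overlapping groups. An exact permutation test of 3 against 3 cannot give a p under 0.1, so none was run on the sums. TPM is a share of each library: relative to nuclear protein-coding TPM, replication-dependent genes held 3.61% ± 0.225 in controls and 2.79% ± 0.561 in mutants (SD, n = 3 each), and there mutant 3 overlapped the controls.

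**Figure D3:**
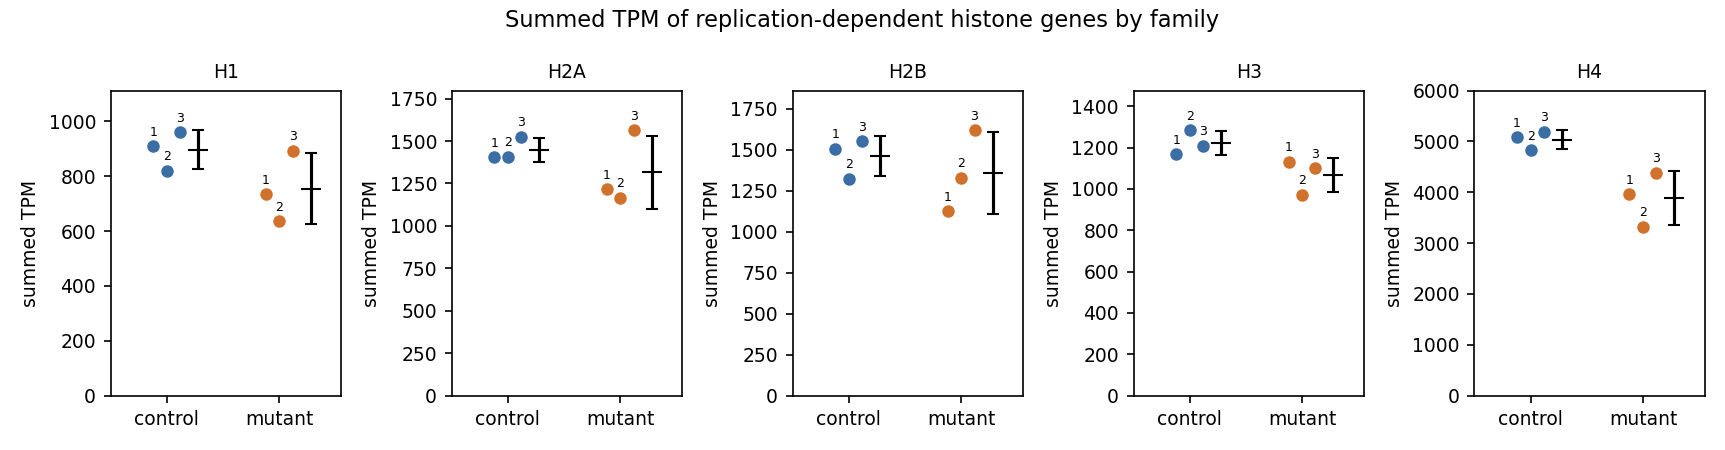
Summed TPM of the replication-dependent genes of each histone family in each library (points, numbered by replicate), with the mean and SD of each group (n = 3). H3 and H4 are the 2 families in which every mutant lies below every control; in H2A and H2B, mutant 3 is the highest library.

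The makeup of each family differed between groups in part. H2bc1 alone made up 63.9%, 53.0% and 62.0% of all H2B TPM in controls and 51.6%, 48.8% and 52.1% in mutants, every mutant below every control. H2ac1 made up 23.8% ± 4.12 of H2A TPM in controls and 19.4% ± 1.56 in mutants (SD, n = 3 each), with control 2 among the mutants. H3f3a and H3f3b together held 27.8%, 26.5% and 27.7% of H3 TPM in controls and 30.03%, 36.5% and 30.4% in mutants, every mutant above every control. Macroh2a1 held 2.69% ± 0.401 of H2A TPM in controls and 4.00% ± 0.932 in mutants (SD, n = 3 each), with mutant 3 below control 2. A share can move through its other members as well as through the gene itself. H2bc1 (384 bases) and H2ac1 (390 bases) are annotated without untranslated regions. Because TPM is scaled by length, the size of their shares may not be comparable with that of genes annotated in full.

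**Figure D4:**
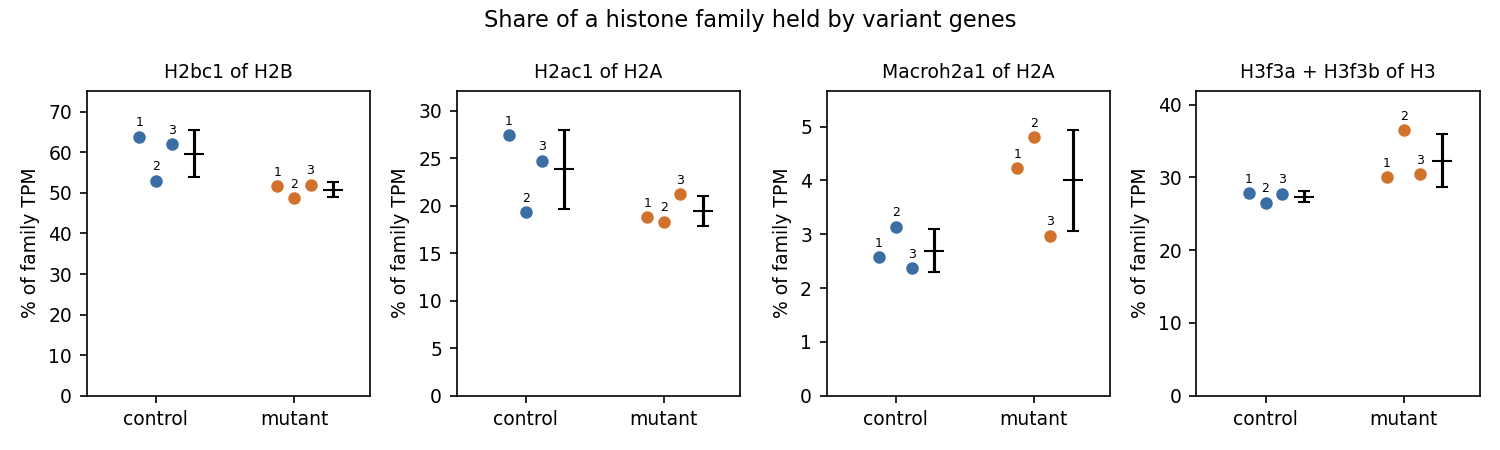
Percent of the TPM of a histone family held by H2bc1 (of H2B), H2ac1 (of H2A), Macroh2a1 (of H2A) and H3f3a with H3f3b (of H3), in each library (points, numbered by replicate) with the mean and SD of each group (n = 3). The H2bc1 share is lower and the H3f3a and H3f3b share higher in every mutant than in every control; the other 2 panels overlap.

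Single copies differed in their spread between libraries. Of the 64 replication-dependent genes, 32 had at least 50% of their 50-base windows in a transcript of another gene. Their within-group SD of log2(TPM + 1) had a median of 0.35, against 0.21 in the 32 genes that shared less and 0.16 over all genes tested. The largest was 1.59, in Hist1h2br, which read 17.0, 65.3 and 6.81 TPM in controls and 40.0, 8.72 and 3.50 TPM in mutants. The pseudogene Hist1h2al, with 67.6% of its windows shared, read 152, 0.598 and 164 TPM in controls and 158, 139 and 0.874 TPM in mutants, so a value near 0 occurred in 1 library of each group. Genes with under 50% shared windows had a median log2 difference of −0.11 (21 of 32 below 0), and those with more a median of −0.22 (25 of 32 below 0). With a stem-loop anywhere in a transcript, the median was −0.17 (31 of 41 below 0), and without it −0.17 (15 of 23 below 0).

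**Figure D5:**
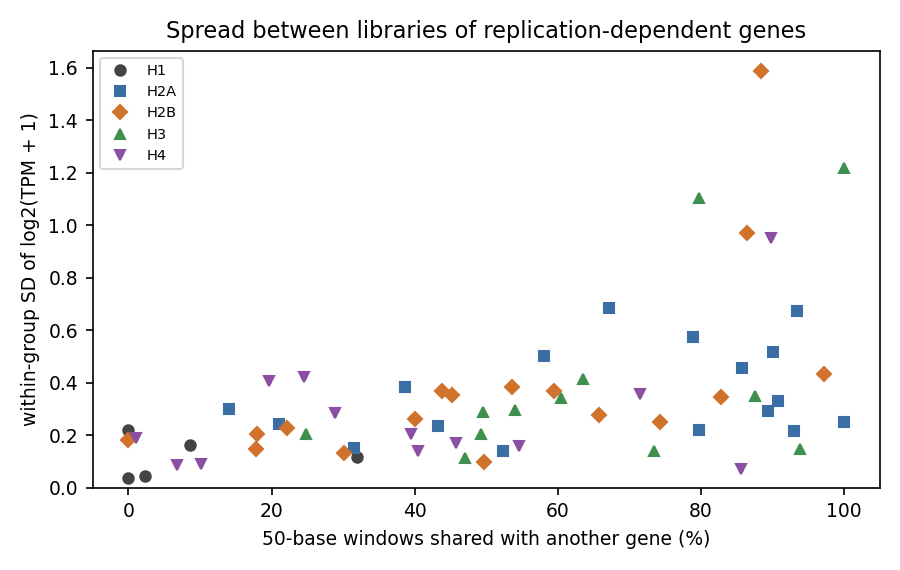
Within-group SD of log2(TPM + 1) of each replication-dependent gene against the percent of its 50-base windows found in a transcript of another gene. Points are genes, marked by family. Genes with under 50% shared windows reach 0.42, and those with more reach 1.59 in Hist1h2br.

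Overlapping models add to this. Predicted genes on the opposite strand overlap H2ac14, H2ac15, H2ac12 and H2ac19 and were themselves at means of 447, 396, 105 and 156 TPM. Whether counting used the strand is not given in the sources used here, and without it reads of such pairs cannot be told apart. Of the pseudogenes, H2ac14 (older symbol Hist1h2aj) read 417, 526 and 412 TPM in controls and 371, 322 and 309 TPM in mutants, with no overlap (log2 difference −0.43; limma, adjusted p = 0.294). H3f3c (0.17), H3f3a-ps2 (0.19) and H2bu1-ps (0.42) were above 0 with overlapping groups, and 82.0% of the windows of H3f3a-ps2 are shared. The antisense gene H3f3aos stood at 2.36 ± 0.382 and 2.38 ± 0.178 TPM (SD, n = 3 each), a log2 difference of 0.01 that was below 0 under both other scalings.

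Genes that make and handle histones lay on both sides of 0. Over all genes tested, 33.6% were below 0 and the median was 0.09, so the 2 lists that follow were lower than this background. In the list for histone mRNA transcription and 3′ processing, 15 of 16 genes were tested, 8 above and 7 below 0 with a median of 0.01. Slbp, which binds the stem-loop, stood at 61.8 ± 3.77 TPM in controls against 57.6 ± 3.05 TPM in mutants (SD, n = 3 each; log2 difference −0.10; limma, adjusted p = 0.573), and Npat, the activator of histone gene transcription, differed by 0.04. Both were named after their values were seen. Eri1, an exonuclease that trims histone mRNA, was lower in every mutant at 13.0 ± 1.25 against 10.4 ± 1.06 TPM (SD, n = 3 each; log2 difference −0.29; limma, unadjusted p = 0.038, adjusted p = 0.299). Zfp473 (−0.21), Cpsf2 (0.17) and Cpsf3 (0.12) were next by p. Rnu7, the U7 RNA that guides the cleavage, was listed at 0 in all 6 libraries.

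Among 23 histone chaperones and exchange factors, 10 were above and 13 below 0 with a median of −0.01, against 33.6% of all genes below 0. Every mutant was below every control in 4 and above in 1, against 5.77% and 14.5% of all genes. Asf1b, a chaperone of new H3 and H4, was lower in every mutant (log2 difference −0.35; limma, unadjusted p = 0.014, adjusted p = 0.294), as was Hat1, which acetylates new H4 (−0.25; limma, adjusted p = 0.294). Atrx, which works with Daxx to place replacement H3, was higher in every mutant (0.27; limma, adjusted p = 0.310). Hjurp, the chaperone of centromeric H3, had a log2 difference of −0.28 with overlapping groups. In the S phase list, Rrm2 (−0.28), Top2a (−0.23) and Pcna (−0.18) were lower in every mutant, and Mcm5 (−0.24) overlapped.

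Of 13 names listed for histone replacement in spermatids, 6 were tested. Tnp1, Tnp2, Prm1, Prm2, Prm3 and Hils1 averaged under 1 TPM, and Tip60 is another name for Kat5. Brdt, the testis bromodomain protein that binds acetylated histones, read 25.9, 13.9 and 27.3 TPM in controls and 11.98, 14.2 and 13.2 TPM in mutants. Control 2 was again within the mutants (log2 difference −0.67; limma, unadjusted p = 0.027, adjusted p = 0.294). Chd5 (−0.41), Epc1 (0.14) and Kat5 (0.12) had overlapping groups. In these 4 lists 0 genes passed the adjusted threshold (limma). At an unadjusted p under 0.05, 5 of the 66 tested were lower and 1 was higher, against 3.98% and 12.1% of all genes.

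In the authors' deposited table, the confident log2 fold change was below 0 for 51 of the 92 histone genes, above 0 for 32 and at 0 for 9. Over all genes of the authors' deposited table it was below 0 for 10934 and above 0 for 16673. Among replication-dependent genes, the authors' deposited table had 41 below and 21 above 0.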

How the data were processed

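Whole testes of 3 control and 3 mutant mice were compared, grouped by the labels' genotype. Each library was treated as 1 animal, since the design text counts animals. HISAT2 and GRCm38 are named in the submitters' processing notes, and how TPM was computed is not given in the sources used here. For each library the authors deposited TPM per gene and isoform, and for the series a table with log2 fold changes, used for description only.

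The 17959 genes averaging 1 TPM or more entered a limma 3.58.1 fit in R 4.3.3 (lmFit, trended eBayes) of log2(TPM + 1). Tests were two-sided, p-values were adjusted by Benjamini-Hochberg over all of these genes, and the threshold was 0.05. Log2 differences are on this scale, which understates changes of low genes. Isoforms were tested likewise. The share test used, with no trend, the log2 ratio of an isoform to the rest of its gene, each with 0.1 added; it took genes averaging 5 TPM or more and mean shares between 5% and 95%. The fit was also run, as a self-test, on simulated data with independent noise for each gene. That run gives no error rate for these libraries. Class sums and family shares add TPM over members.

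Older symbols came from GENCODE M21 names matched through RefSeq synonyms on the same chromosome; each match was checked by the sum of isoform TPM equalling gene TPM. The gene H1f11-ps was not matched to GENCODE M21. Shared sequence is the percent of a gene's 50-base windows found in another gene's GENCODE M21 transcript. Stem-loops were sought in those transcripts, and promoter motifs in the 250 bases before each RefSeq start (GRCm38.p6), on both strands.

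Named genes were all germ-line variants, all tested replacement variants, pseudogene and antisense members of at least 1 TPM, the 10 replication-dependent genes with the smallest p, the most abundant of each family, up to 4 genes of each related list by p, and the 5 isoforms or shares with the smallest p where they add to the account. Genes with separated groups, or singled out for their spread or sign, were added after their values were seen. Members and lists were chosen with earlier results of these data known. Alternatives were another pseudocount, no filter or 5 TPM, each library left out, a replicate block, no trend, and scaling by median ratio or to nuclear protein-coding genes. For shares, whose test has no trend and adds 0.1, a trend and a pseudocount of 1 were run instead. Tables and plots were made in Python 3.11.15 (pandas 2.3.3, matplotlib 3.10.9).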

Additional observations from a re-analysis of the deposited data

How the results depend on the processing

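In every alternative run, 0 histone genes, isoforms or isoform shares passed the adjusted threshold (limma; smallest adjusted p of a histone gene 0.0901 without control 2 to 0.625 without mutant 2). The count at an unadjusted p under 0.05 was less firm: 12 lower genes became 4 (without control 1 or mutant 2) to 20 (without mutant 3) when libraries were left out in turn, and 4 higher genes became 0 (without control 3) to 5. Median-ratio scaling left 1 higher gene and protein-coding scaling 2. Under these scalings the median of replication-dependent genes was −0.28 and −0.29, that of replacement variants −0.023 and −0.027, and the ratio of summed replacement TPM 0.887 and 0.884, because they lower all genes of the mutants together. The count of replication-dependent genes below 0, an alternative added after seeing the data, ran from 41 to 52. The stem-loop count of 21 became 22 with 1 mismatch and 41 anywhere in the transcript, the latter also added after seeing the data. Of 414 values of named histone genes under the alternatives, 394 kept their direction and side of the threshold and 20, in 6 genes, changed sign, none of them past the threshold.

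Under median-ratio and protein-coding scaling, H1f0 stood at −0.036 and −0.041, H3f3b at −0.0092 and −0.013, H3f3aos at −0.066 and −0.085, and Hist1h2al at −0.10 and −0.049. With 1 library left out, H1f0 ran from −0.0011 (without control 2) to 0.13, H2az2 from −0.11 to 0.015 (without control 1), H3f3aos from −0.081 (without control 2) to 0.081, Hist1h2al from −2.19 (without control 2) to 2.12 (without mutant 3), and Hist1h2bq from −0.33 to 0.18 (without control 3). The cause was not tested.

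The labels number the libraries 1 to 3 in both groups. Deviations from the group means correlated at −0.07, 0.03 and 0.08 between same-numbered libraries. With 3 libraries per group, these values cannot decide whether same-numbered samples share a litter or a batch. With the replicate block 0 histone genes were called and 19, not 12, were lower at an unadjusted p under 0.05; control 2 correlated best with mutant 1 (0.12), not with its own number. TPM keeps no depth, so precision at low values is unknown.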
